A study of Mus musculus with 4 samples.

Results

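DNA methylation was compared between regulatory T cells (Treg) and effector T cells (Teff) of mice that had received PBS only. The comparison covered all cytosine positions with at least 5 reads in both PBS libraries, which were 9052361 of the 25374149 positions listed. Methylated and total reads were summed over these positions in fixed windows of 1 kb. The windows with at least 5 such positions were tested, and they numbered 789300 of the 1965641 windows that held at least 5 listed positions. The other windows are not described here.

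The cells came from the spleen of NOD mice, an inbred strain prone to autoimmune diabetes. PBS was given weekly for 3 weeks from the age of 6 weeks. The spleens were taken at 10 weeks, when 1 week had passed since the final dose. Flow sorting gave a CD4+CD25- fraction, called Teff, and a CD4+CD25hi fraction, called Treg. A second pair of libraries came from NOD mice of the same age and schedule that were given OX40L and Jagged-1 proteins (the OX40L-JAG1 pair), and it served here only as a second reading. Each of the 4 groups was 1 bisulfite library, and the labels give neither the sex of the mice nor the number behind a library. The Treg gate used CD25 and not Foxp3, and CD25 is also carried by activated conventional T cells. All p-values below therefore compare libraries and not cell types, and no spread between mice could be measured.

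In mammals, methylation lies mainly on cytosines that precede a guanine. Active promoters and enhancers are usually poor in it, while most of the rest of the genome is methylated. In the Treg lineage, Foxp3 and a set of further loci lose methylation during development, and this state is known to accompany stable Foxp3 expression. A level between the extremes can come from a mixture of cells or of alleles, and the 2 cannot be told apart in bulk DNA.

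The promoters below show the measured positions just before some gene starts that differed, which are a part of each region tested there. They are the 250 bases before the start, read on the strand of the gene, from RefSeq sequences of GRCm38.p6, which is the assembly behind mm10. Capitals mark the positions with at least 5 reads in both PBS libraries. A capital C or G belongs to the cytosine of the strand shown or of the opposite strand. Over all 32851 starts with a sequence, 99.99% of the listed positions in these 250 bases lay on a CG pair.

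Foxp3 is shown because its start was lower in Treg (chrX:7580233-7580482, plus strand), and Ppp1r3f, its neighbour, because its start was higher (chrX:7574282-7574531, minus strand). Coq10a was also higher (chr10:128370038-128370287, minus strand). Fas is shown as a start where these 250 bases did not differ while the wider region did (chr19:34290409-34290658, plus strand).
Foxp3: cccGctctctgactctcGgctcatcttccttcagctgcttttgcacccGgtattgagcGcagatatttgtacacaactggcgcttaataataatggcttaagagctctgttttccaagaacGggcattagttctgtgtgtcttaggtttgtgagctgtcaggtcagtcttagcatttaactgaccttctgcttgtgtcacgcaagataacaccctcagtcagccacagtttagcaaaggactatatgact
Ppp1r3f: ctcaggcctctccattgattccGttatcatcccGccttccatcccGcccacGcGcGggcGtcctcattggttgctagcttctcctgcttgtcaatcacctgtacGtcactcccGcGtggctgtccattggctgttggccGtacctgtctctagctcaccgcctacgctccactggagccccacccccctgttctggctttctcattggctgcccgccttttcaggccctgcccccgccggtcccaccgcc
Coq10a: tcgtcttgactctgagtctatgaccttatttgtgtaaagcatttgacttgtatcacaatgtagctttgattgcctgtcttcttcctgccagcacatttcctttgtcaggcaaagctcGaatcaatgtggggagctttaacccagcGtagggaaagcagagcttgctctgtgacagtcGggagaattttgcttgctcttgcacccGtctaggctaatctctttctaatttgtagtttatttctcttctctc
Fas: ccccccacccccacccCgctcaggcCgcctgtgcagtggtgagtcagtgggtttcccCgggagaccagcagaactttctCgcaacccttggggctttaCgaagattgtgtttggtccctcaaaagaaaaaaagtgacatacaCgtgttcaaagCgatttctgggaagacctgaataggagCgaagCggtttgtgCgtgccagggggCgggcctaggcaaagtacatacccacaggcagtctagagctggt

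Each of the 5 measured Foxp3 positions was less methylated in Treg. From the most distant to the nearest, they lay 247, 233, 202, 192 and 129 bases before the start. Their levels were 95%, 100%, 88%, 100% and 92% in Teff and 25%, 27%, 22%, 57% and 25% in Treg. Summed, 95.2% of 83 reads were methylated in Teff and 29.8% of 47 reads in Treg. The 11 measured positions of the Ppp1r3f promoter went the other way, from 18.9% of 95 reads to 52.2% of 113 reads, and each of them was higher in Treg. Coq10a, which encodes a coenzyme Q binding protein of mitochondria, had 4 measured positions at 17.2% of 58 reads and 66.7% of 27 reads. At Fas, the gene of a death receptor, all 11 measured positions stood at 0% in both libraries, from 64 reads in Teff and 85 in Treg, which allow up to 4.69% and 3.53%. These promoter sums are given as levels and were not tested.

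Over the whole genome the 2 libraries were close. The level over the used positions was 84.9% in Teff and 84.5% in Treg, with Wilson 95% intervals from 84.888% to 84.899% and from 84.540% to 84.553%. Windows differed by a median of -0.170 points, Treg minus Teff, with an SD over windows of 6.17 points. The table lists 208402911 reads for PBS Teff and 131555634 for PBS Treg, and a window held a median of 79 and 62 reads. Since 1 read is entered at several positions, the reads of a window are not independent molecules, and every interval here covers counting error only. Mitochondrial cytosines, a reading of incomplete conversion, stood at 0.697% and 0.635%.

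A small set of windows differed strongly. By Fisher's exact test with Benjamini-Hochberg adjustment over all windows, at an adjusted p under 0.05 and a difference of at least 20 points, 1190 windows (0.151%) were lower in Treg and 642 (0.0813%) were higher. "Called" means past both thresholds throughout. Lower windows had a median level of 86.0% in Teff and 45.7% in Treg, and higher windows 36.5% and 71.7%. The median difference was -34.5 points among the lower and 31.0 points among the higher. Large changes were more often losses, since 177 lower and 41 higher windows differed by at least 50 points, and 28 windows went from 80% or more in Teff to under 20% in Treg while 2 went the opposite way. Dividing the read counts by 3 left 113 lower and 47 higher calls. A minimum of 10 reads per position left 262 and 219, of which 54.5% were lower against 65.0% of the main calls.

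**Figure D1:**
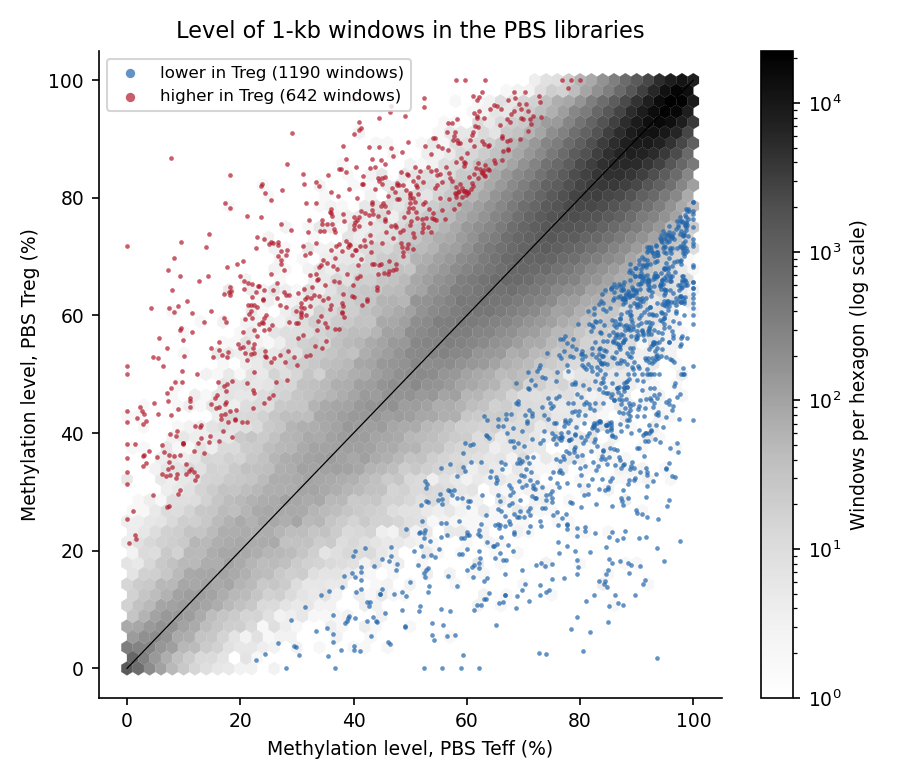
Methylation level of each 1-kb window in PBS Teff (horizontal, %) and PBS Treg (vertical, %), with grey hexagons for all 789300 windows (log colour scale) and points for called windows. The 1190 lower windows (blue) gather below the diagonal at high Teff levels, and the 642 higher windows (red) spread over low and middle Teff levels.

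Called windows were most frequent near gene starts and within genes. Within 1 kb of a gene start, 0.280% of windows were lower and 0.154% higher. In the rest of gene bodies these shares were 0.208% and 0.112%, within 5 kb of a gene 0.167% and 0.0818%, and farther from any gene 0.0649% and 0.0367%. Beyond 100 kb from a start, 0.0792% were lower and 0.0270% higher, so that losses made up 74.6% of the called windows there against 65.0% over the genome. Median reads per window differed little between these places, from 74 to 83 in Teff and from 60 to 65 in Treg.

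The balance of losses and gains followed the level of a window. Of windows at 70 to 90% in both libraries together, 528 were lower and 101 higher. At 30 to 70% the counts were 608 and 432, and at 10 to 30% gains led, with 45 lower and 107 higher. A level near an extreme leaves little room for a change in that direction, so the classes are not equal in what they can show. Chromosome 1, which carries Ikzf2, had 130 lower (0.225%) and 34 higher windows (0.0588%) of 57826. The lower shares of chromosomes 10 and 16 were close to that, at 0.224% and 0.222%. Chromosome 5 had 37 (0.0804%) and 34 (0.0739%) of 46022. On the X chromosome 0.0398% of windows were lower and 0.0221% higher, against 0.158% and 0.0850% on the autosomes.

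**Figure D2:**
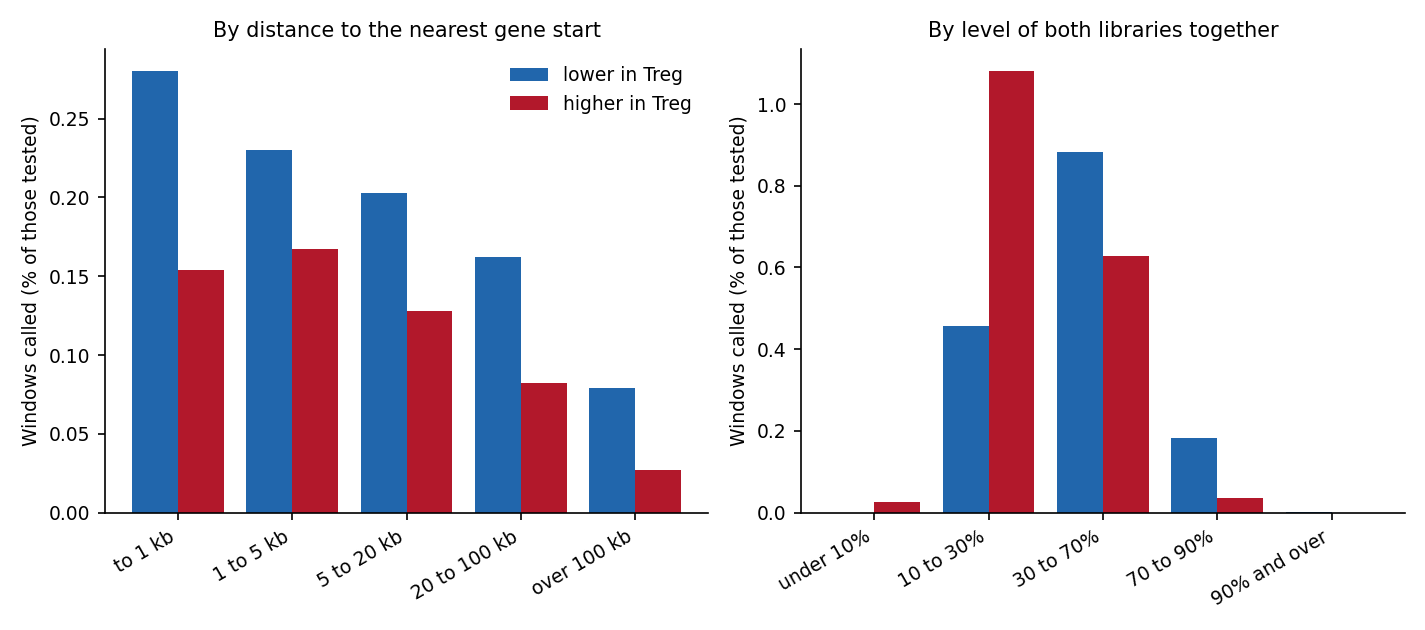
Share of tested windows called lower (blue) and higher (red) in PBS Treg, by distance of the window's centre to the nearest gene start (left) and by the methylation level of both libraries together (right), in %. The lower share declines from 0.280% near starts to 0.0792% beyond 100 kb, the higher share goes from 0.154% over 0.167% in the class from 1 to 5 kb to 0.0270%, and higher windows outnumber lower ones in the class from 10 to 30%.

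Foxp3, the transcription factor that defines Treg, was lower in Treg in 4 of its 11 windows (windows within the gene or its flanks of 5 kb are counted to a gene). The gene lies at X:7579676-7595243. The window from 7580001, which holds the promoter printed above, stood at 94.6% of 92 reads in Teff and 41.0% of 61 reads in Treg. The window from 7584001, in the gene body, stood at 92.1% and 41.4%, a difference of -50.7 points with a Newcombe 95% interval from -63.2 to -35.5, and it was also called in the OX40L-JAG1 pair at -51.2 points. Another lower window, from 7594001 at the far end of the gene, went from 100% of 40 reads to 65.7% of 35 reads. The last, from 7578001, lies before the gene and went from 84.3% to 58.3%.

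The loss did not extend over all of the Foxp3 locus. The window from 7579001, which holds the low-coordinate end of the gene, was not called. It differed by 19.3 points in the higher direction, from 40.2% of 107 reads to 59.5% of 84 reads. The window from 7591001 differed by -19.0 points and was not called (adjusted p = 0.0521, Fisher's exact test), and that from 7592001 by -4.61 points. A window from 7574001, in the 5 kb before Foxp3 and at the start of Ppp1r3f, a regulatory subunit of protein phosphatase 1, was called higher in Treg, from 22.4% of 161 reads to 46.9% of 175 reads. With read counts divided by 3, the Foxp3 window from 7580001 kept its difference, at -53.5 points, and was not called.

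Ikzf2, which encodes the Treg transcription factor Helios, carried more called windows than any other gene. Of its 105 windows 43 were lower in Treg and 0 higher, and 100 differed in the lower direction whether called or not. Called differences ran from -23.8 to -76.7 points. The longest stretch of neighbouring lower windows in the genome, with at most 1 window between them, lay here: 16 windows over 22000 bases (1:69655001-69677000), at 82.1% of 2167 reads in Teff and 30.7% of 1638 reads in Treg. Further called windows lay near the other end of the gene, among them 4 neighbours from 69542001 at 86.6% and 26.8%. In the middle of the gene, from 69556001 to 69640000, 3 of 48 windows were called, and the median difference of the 48 was -6.33 points. Of 24 called Ikzf2 windows that could be measured in the OX40L-JAG1 pair, 23 had the same sign and 21 were called there too.

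Il2ra encodes CD25, the alpha chain of the interleukin-2 receptor and the marker of the sort. It held 7 lower windows of 32 and 0 higher. The window from 2:11645001 stood at 63.0% of 54 reads in Teff and 11.8% of 51 reads in Treg, and that from 11654001 at 54.4% of 272 reads and 18.9% of 196 reads. Over the whole locus, that is all used positions of the gene and its flanks, the level was 80.3% in Teff and 64.3% in Treg. Its 7 called windows lay inside the gene, the first from 11645001 and the last from 11662001. The window from 11637001, in the flank before the gene, stood at 14.9% and 13.5% and was not called. Only 1 of the 7 windows was measured in the OX40L-JAG1 pair, which called it at -46.4 points.

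**Figure D3:**
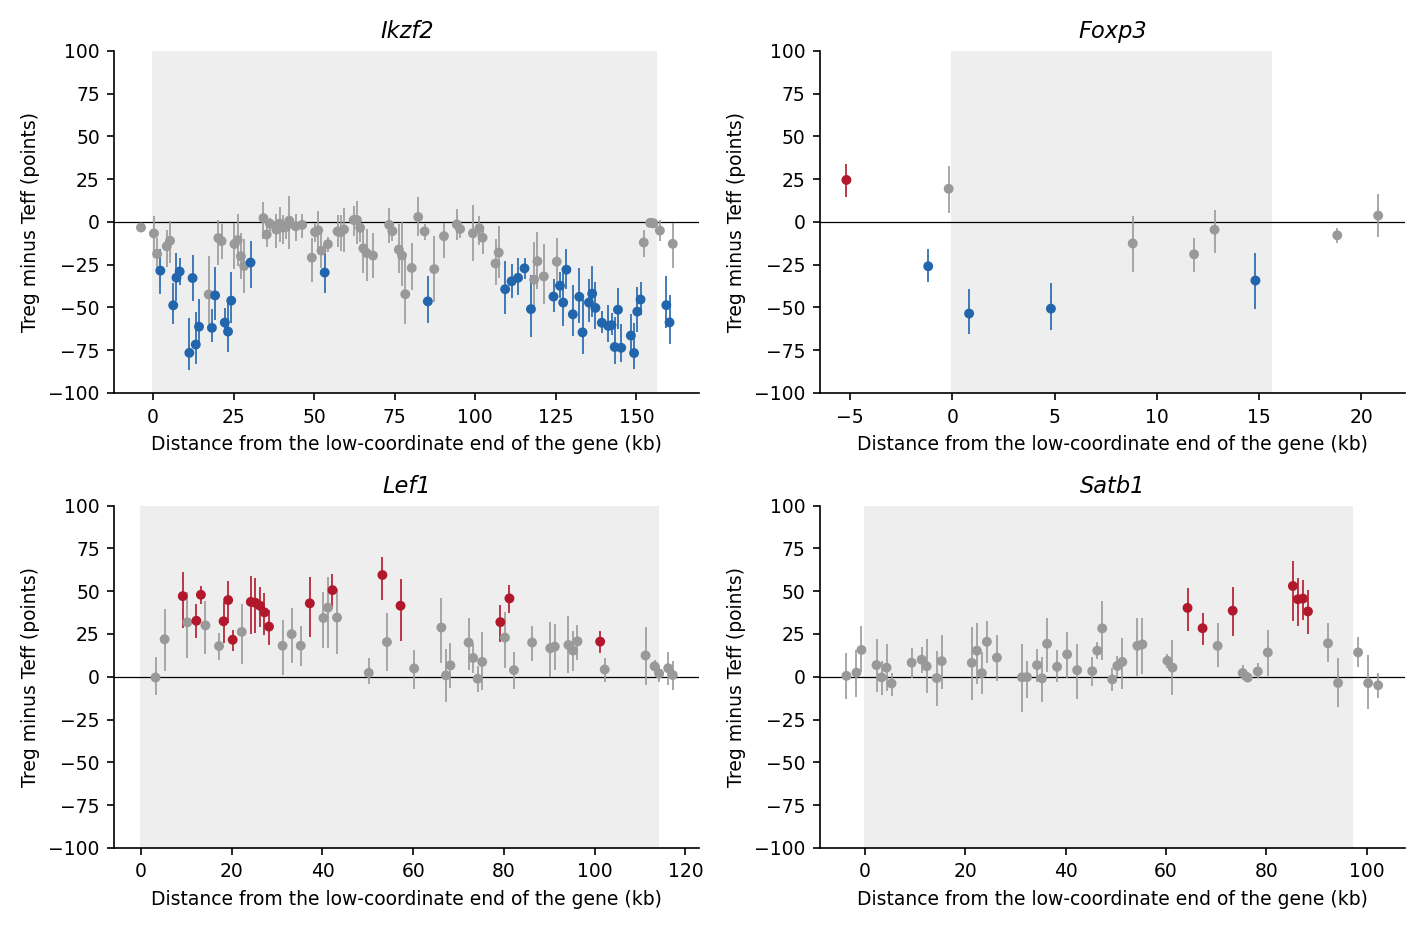
Treg minus Teff difference of each tested window (points, with Newcombe 95% intervals) against distance from the end of the gene with the lower coordinate (kb), at Ikzf2, Foxp3, Lef1 and Satb1; blue is called lower, red called higher, grey not called, and shading marks the gene. Lower windows of Ikzf2 form a group toward each end of the gene, Foxp3 has 4 lower windows and 1 higher window before the gene, and Lef1 and Satb1 hold only higher ones among those called, 18 and 7.

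Treg signature genes were often lower. Of 30 measured, 17 (56.7%) had at least 1 lower window and 1 (3.33%) had a higher window. Over all 20784 protein-coding genes, 685 (3.30%) held a lower and 414 (1.99%) a higher window. List genes had a median of 13.5 windows and all genes 9, and the sizes differ accordingly. The higher window is the one before Foxp3 described above. Gpr83, a neuropeptide receptor of Treg, differed by -59.8 points at its start and reached 15.2% in Treg. Itgb8, an integrin chain that activates TGF-beta, went from 87.5% to 34.5%, and Lrrc32, which encodes the TGF-beta carrier GARP, from 79.5% to 22.6% on 39 and 31 reads. Smaller called differences were those of Cd83 (-21.7 points), Il1rl1, the IL-33 receptor (-21.5 points), Nrp1 (-27.7 points) and Entpd1, the ectonucleotidase CD39 (-20.8 points).

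Whole-locus values added Ctla4, which held no called window. Ctla4, an inhibitory receptor of Treg, had 3 tested windows and 0 called, at -20.4, -11.6 and -14.3 points. Its locus stood at 77.7% of 785 reads in Teff and 36.1% of 598 reads in Treg over 53 positions. The difference of -41.6 points, with a Newcombe 95% interval from -46.3 to -36.6, was the lowest of all protein-coding loci with at least 20 positions. Most of these reads lay outside the 3 tested windows. Tnfrsf4, which encodes OX40, came next at -35.3 points, and the locus of Sdhaf1, an assembly factor of mitochondrial complex II, followed at -34.8 points. The list's loci had a median difference of -5.22 points, from -41.6 to 6.73, against -0.457 points for all protein-coding genes, and 28 of 30 were below 0. Il10, an anti-inflammatory cytokine, was at 6.73 points.

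Genes of interleukin-2 and STAT signalling, which maintains Treg, held lower windows in 7 of 21 cases (33.3%) and a higher one in 1 (4.76%). Over all protein-coding genes these shares were 3.30% and 1.99%, at a median of 9 windows per gene against 12 here. Il2rb, the beta chain of the receptor, went from 91.1% of 45 reads to 14.3% of 28 reads in its window with the largest difference. A window at the start of Stat5a, shared with the neighbouring Stat5b, went from 65.5% to 29.5%. Stat6 went from 40.0% to 3.77%, and Il21r from 89.7% to 66.7%. The higher window was in Stat5b, from 38.0% to 60.5%. The median locus difference of this list was -1.47 points.

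TNF receptor and NF-kB genes, which include receptors that drive Treg growth, held lower windows in 9 of 25 cases (36.0%) and higher ones in 0. Beside that stand 3.30% and 1.99% of all protein-coding genes, which had a median of 9 windows where this list had 7. Tank, an adaptor of TRAF proteins, had a run of 5 lower windows over 5000 bases from its start, at 82.5% of 914 reads in Teff and 47.9% of 718 in Treg. The NF-kB subunit genes Nfkb1 and Rel held 5 and 2 lower windows, the largest at -48.5 and -54.2 points. The inhibitors Tnfaip3 and Nfkbia were lower too, from 84.6% to 16.1% and from 35.3% to 6.85%. Traf1 went from 61.8% to 10.8% at its start. The members Tnfrsf4, Tnfrsf9 and Tnfrsf18 also stand in the Treg list, so the lists are not separate counts.

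T cell receptor genes went both ways. Of 25 measured, 9 (36.0%) held a lower and 4 (16.0%) a higher window. For all protein-coding genes the shares were 3.30% and 1.99%, and the median was 9 windows per gene against 14 in this list. Losses included the coreceptor Cd28, from 51.3% to 17.5%, the transcription factor Nfatc1, from 72.7% to 2.70% on 33 and 37 reads, and the tyrosine phosphatase Ptpn22, from 64.9% to 20.9% in its flank. Cd5, a negative regulator of receptor signalling, had a locus difference of -18.7 points. Gains included the receptor subunit Cd3e, from 14.6% of 1064 reads to 38.5% of 774 reads. The kinase gene Prkcq held 2 higher windows, both at 0% in Teff and at 41.9% and 31.4% in Treg, and 1 lower window. The 43 Teff reads of each higher window allow up to 6.98%.

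Naive and conventional T cell genes were more often higher in Treg. Of 20 measured, 6 held a higher window, namely Bach2, Igfbp4, Lef1, Satb1, Tcf7 and Themis, and 3 a lower one, namely Bach2, Foxp1 and Stat4. A higher window was held by 1.99% of all protein-coding genes and a lower one by 3.30%. The list was above both shares, but its genes had a median of 16 windows against 9 for all genes. Lef1, a partner of TCF-1 in T cell development, had 18 higher windows of 54, the most of any gene, and 52 of 54 differed in the higher direction. Its window from 3:131163001 stood at 14.5% of 83 reads in Teff and 73.9% of 69 reads in Treg, and its locus at 55.7% and 77.9%. That difference of 22.2 points was the highest of all protein-coding loci with at least 20 positions. Satb1, a chromatin organiser of T cells, had 7 higher windows of 52, of which 4 made a run at 10.9% and 55.9%.

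The list was not uniform. Bach2, a repressor of effector programmes, held 2 windows of each direction, and its locus differed by 0.276 points. Foxp1, a factor that keeps T cells quiescent, held 1 lower window of 275, from 73.1% to 18.0%, while its start region was called higher, from 44.0% to 67.8%. The loci of Ccr7 and Il2 were at -5.09 and -7.08 points with 0 called windows each. The list's median locus difference was 1.72 points.

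Among T lineage transcription factors, 7 of 20 held a higher and 5 a lower window, with a median of 28.5 windows per gene. All protein-coding genes had shares of 1.99% and 3.30% at a median of 9 windows, so the larger size of these genes adds to their counts. All 3 Runx genes, partners of Foxp3 and regulators of T cell fate, held higher windows. These were 2 of 82 windows at Runx1, 4 of 136 at Runx2 and 1 of 9 at Runx3. Runx3 was higher at its start, from 14.8% of 230 reads to 44.9% of 185 reads, and this window was called in the OX40L-JAG1 pair as well, at 27.5 points. Runx1 went from 40.0% to 90.9% near its start, and Runx2 had 4 higher windows and 1 lower. Ikzf1, the founder of the family of Ikzf2 and Ikzf4, went from 8.27% to 36.1% in 1 of 28 windows, and its locus was at 9.73 points. Ikzf3 held 1 window of each direction.

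Effector and helper genes held lower windows in 6 of 24 cases and higher ones in 2, with a median of 8.5 windows per gene. For this list and the checkpoint list below, the background is 3.30% of all protein-coding genes with a lower window and 1.99% with a higher one. That background has a median of 9 windows per gene. Irf4, a factor of effector Treg as well as of helper cells, went from 55.0% to 20.3%. Maf, also active in both, went from 82.1% of 363 reads to 58.5% of 272 reads. The loci of the lineage regulators Tbx21 and Gata3 were at -3.22 and -3.32 points, and neither held a called window. Of 14 checkpoint genes, with a median of 13 windows, Cd274, Havcr2, Tigit and Tox (28.6%) held lower windows. Nr4a1, Nr4a2 and Nr4a3 (21.4%), immediate early nuclear receptors induced by the T cell receptor, held the higher ones. Nr4a2 went from 22.5% of 822 reads to 53.7% of 451 reads. Its locus was at 13.5 points, while the loci of Nr4a1 and Nr4a3 were at -4.38 and -2.29 points. Tox, with 4 lower windows of 141, went from 62.2% to 0% in 1 of them, where 0 of 28 Treg reads allow up to 10.7%.

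Of 15 genes of the methylation machinery, 3 held a lower and 2 a higher window, where 3.30% and 1.99% of all protein-coding genes did. The called members had from 9 windows (Tdg) to 44 (Tet1), and all genes a median of 9. The demethylation genes Tet2, Tet3 and Tdg each held a lower window, with differences of -40.2, -49.3 and -47.1 points. Tet1 held a higher one, from 44.9% to 86.4%. Dnmt1, the maintenance methyltransferase, went from 18.2% to 63.4% near its start. The loci of these 5 genes differed little, from -2.39 points at Tdg to 2.37 points at Tet1. Migration genes held 2 lower and 3 higher genes of 20, among them Ccr4 at 20.3 points and Emb, from 26.7% of 378 reads to 70.1% of 358 reads. In the Notch list of 21 genes, Maml2 held 1 window of each direction among 81, and Notch2 a higher one among 40. That is 4.76% of the list with a lower window, near the 3.30% of all genes, and 9.52% with a higher one.

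Markers of other cell types were read against the 3.30% of all protein-coding genes with a lower and the 1.99% with a higher window, and at these shares a count of 0 among about 10 genes does not set a list apart. The 10 B cell genes held 0 called windows, and their loci ran from -3.30 points at Cd79a to 6.16 points at Cd79b, both subunits of the B cell receptor, with a median of -0.339. For CD8 T and NK cells, 9 genes were measured with 0 called windows. Their loci ran from -4.44 points at Cd8b1, the CD8 beta chain, to 6.51 points at Gzmb, a granule protease, with a median of 2.01. Of 13 myeloid genes 2 (15.4%) held a higher window and 0 a lower one. These were Spi1, which encodes PU.1, and Cebpb, from 54.0% to 90.1% and, in the flank, from 54.7% to 82.1%. Cebpb had the largest locus difference of the list, 12.2 points, and Csf1r the lowest, -2.64 points. The median was 0.699 points, and 8 of the 13 loci were above 0. Lyz2 and Itgam were at 2.13 and 0.462 points, and Spi1 and Cd14 at 5.74 and 6.68 points. The part of other cells in the differences between the fractions was not tested beyond these values.

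Reference lists are given beside the same shares of all genes, 3.30% and 1.99%, which leave counts of 0 in lists of this size close to the background. Proliferation, housekeeping and germline genes held 0 called windows among 15, 9 and 10 measured genes, with median locus differences of -1.34, -2.02 and -1.16 points. Ccna2, the cyclin of S phase and mitosis, had the lowest locus of the proliferation list, at -9.85 points. Of 15 imprinted genes, whose alleles differ in methylation by parent of origin, Inpp5f held 2 lower windows, at -52.3 and -44.5 points, and its locus was at -6.98 points. The loci of the list ran from that value to 2.60 points at Meg3, with a median of -0.432. H19 and Nnat were at -6.00 and -3.68 points, while Peg3, Snrpn and Grb10 were at 0.411, 0.146 and 0.0397 points.

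The deepest single losses lay at genes of varied function. Each gene was ranked by that bound of the interval which lay nearer to 0, and predicted gene models were left out. Pip4k2a, a phosphoinositide kinase, led with 93.6% of 47 reads in Teff and 1.69% of 59 reads in Treg (2:18977001-18978000, in the gene body). Tbca, a tubulin chaperone, followed at 97.7% and 21.7%, and Camk4, a calcium-dependent kinase of T cells, at 81.8% and 6.25%. In Pip4k2a the OX40L-JAG1 pair gave a smaller difference, -26.0 points and not called, and in Tbca it gave -44.4 points and a call.

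Further losses by this ranking were at Pcgf5, Dusp4, Zfp609, Nupr1, Morrbid, Prrc2b and Inpp4b. Pcgf5, a subunit of Polycomb repressive complex 1, went from 85.1% to 10.7% in the window before its start, and its start region was also the lowest called start of the genome, from 85.4% to 32.4%. Dusp4, a phosphatase of MAP kinases, went from 86.8% to 11.1%, and its locus was at -24.2 points. Morrbid, a long noncoding RNA gene near Bcl2l11, held 5 lower windows in a run at 85.2% of 710 reads and 34.1% of 554 reads. A window in the bodies of both Tigit, an inhibitory receptor gene, and Zbtb20, a zinc finger gene, stood at 95.4% of 173 reads and 27.5% of 138 reads, and it was called in both pairs. Inpp4b, a phosphoinositide phosphatase, went from 89.7% of 29 reads to 12.5% of 40 reads.

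Among the deepest gains, Cers6, a ceramide synthase, led with 7.69% of 52 reads in Teff and 86.8% of 53 reads in Treg (2:68981001-68982000), and the next window was higher too, from 59.5% to 85.4%. Usp12, a deubiquitinase, went from 0% of 60 reads to 71.7% of 46 reads. The 0 methylated reads of 60 allow a level of up to 5%, taking 3 reads as the limit of a count of 0. Rgcc, a cell cycle regulator, went from 18.2% to 78.2% and was called in both pairs. Ptk2b, a focal adhesion kinase, had a window that was 57.6 points higher at 71.7% in Treg, and one with more reads that went from 28.2% of 1031 reads to 49.1% of 662 reads. Med12, a Mediator subunit on the X chromosome, went from 7.32% to 67.6% at its start.

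**Figure D4:**
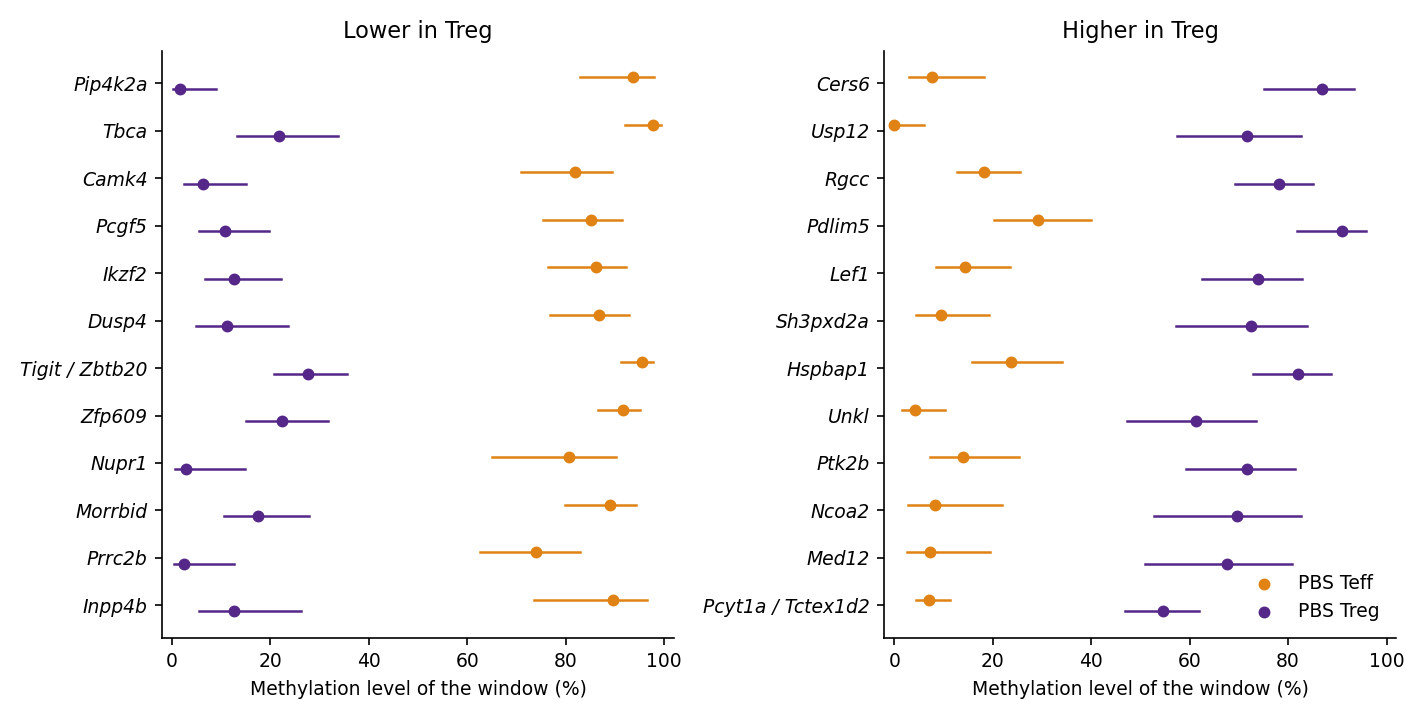
Methylation level (%) of the 12 leading windows of named genes per direction, in PBS Teff (orange) and PBS Treg (purple), with Wilson 95% intervals; names joined by a slash share a window. Lower windows go from 73.9% or more in Teff to 27.5% or less in Treg, and higher windows from 29.1% or less to 54.5% or more.

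Where both strands of a called window were measured, they mostly went the same way. The windows had been called on the reads of both strands together, so this is a description and not a separate test. Of 383 lower windows with both strands, 364 had the same sign on each strand and 235 differed by at least 20 points on each. Of 149 higher windows 129 had the same sign and 68 differed by at least 20 points on each.

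Most called windows stood alone. Of 1089 groups of neighbouring lower windows, 1021 were single, and of 609 higher groups 584 were. Beside Ikzf2, Tank, Morrbid and Lef1, runs of 3 windows were found at Tbc1d4, a Rab GTPase activator, at 82.5% and 33.5%, at Skil, an inhibitor of TGF-beta signalling, at 77.0% and 28.5%, and at Nrip1, a nuclear receptor corepressor, at 65.7% and 35.3%. At least 3 lower windows were held by 44 protein-coding genes and at least 3 higher ones by 9. Both directions occurred in 59 genes. At Rhoh, a GTPase of T cell receptor signalling, 5 of 21 windows were lower, among them 1 from 69.1% of 1189 reads to 31.9% of 670 reads.

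The microRNA genes Mir15b and Mir16-2 lie within Smc4, a condensin subunit gene, in a window that was lower in Treg (3:69009001-69010000). Their mature 5p products, from RefSeq, are shown because both genes lie in this 1 window and share a seed, the bases in capitals that pair with targets.
mmu-miR-15b-5p: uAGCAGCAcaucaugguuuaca
mmu-miR-16-5p: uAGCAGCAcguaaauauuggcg
The window stood at 57.0% of 107 reads in Teff and 9.84% of 122 reads in Treg. The OX40L-JAG1 pair called it too, with levels of 48.5% and 1.39%. A neighbouring window, from 69012001, went from 46.4% to 4.08%. Of the 15 windows of Smc4, 4 were lower and 0 higher, and its locus was at -20.9 points.

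Gene starts were tested as regions of 1 kb to each side. Of 20374 starts with enough positions, 61 (0.299%) were lower in Treg and 43 (0.211%) higher, at 53 and 41 genes. Alternative starts and neighbouring genes share regions, so these are not independent. Starts under 10% in both libraries together, which were 3169, held 0 calls, and 87 of the called starts lay among the 7569 starts from 10 to 70%. Immune genes with a lower start included Tagap, a GTPase activator of T cells, from 70.1% to 21.9%, Tnfrsf4, from 40.5% to 0% of 32 reads, which allows up to 9.38%, and Tgfbr2, the TGF-beta receptor chain, from 36.5% to 8.45%. Elsewhere in Tgfbr2 1 window was lower and 2 were higher in Treg, at -31.1, 52.0 and 23.9 points. Foxp3 went from 73.5% to 48.5%, and Furin, a protease that matures TGF-beta, from 73.8% to 50.9%.

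At Fas the start region went from 50.7% to 27.8%, although the 11 positions in the 250 bases printed above were free of methylation in both libraries. Higher starts included Runx3, Cd160, from 16.1% to 40.4%, and Dntt, the terminal transferase of receptor rearrangement, from 34.8% to 65.2%. On the X chromosome 11 of 775 starts (1.42%) were lower and 3 higher, against 50 (0.255%) and 40 of 19599 on the autosomes. The lower X starts were those of Arhgef6, BC065397, Foxp3, Las1l, Morf4l2, Mtm1, Rpgr and Tceal5, and Mtm1, Rpgr and Tceal5 were each counted at several close starts. X starts were seldom free of methylation, with 0.258% under 10% against 16.2% on the autosomes. Whether this bears on the shares called was not tested. With regions of 500 bases to each side, 25 starts were lower and 27 higher, so the excess of losses at starts was not present there.

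Called windows also lay away from genes. Of the called windows, 198 lower and 112 higher had no gene within 5 kb. On chromosome 2, the window from 117390001 went from 91.5% of 59 reads to 15.0% of 60 reads. On chromosome 19, the window from 56688001 went from 18.2% to 83.9%, and on chromosome 6, that from 124376001 went from 9.87% of 314 reads to 55.8% of 224 reads and was called in both pairs.

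The OX40L-JAG1 pair, which shares no library with the PBS pair, gave a second reading. In its own 511825 windows, 238 (0.0465%) were lower and 198 (0.0387%) higher in Treg. Of the PBS windows called lower, 679 could be measured in it, and 616 (90.7%) had the same sign. Of those called higher, 380 of 408 (93.1%) did. Over all 408691 windows measured in both pairs, 50.1% had the same sign. Both pairs called 119 lower windows, which is 17.5% of the 679 and 119 of the 238 lower windows of the OX40L-JAG1 list, and 73 higher ones, 17.9% of the 408 and 36.9% of the 198 higher ones. None was called in opposite directions.

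Differences were smaller in the second pair. The median was -16.4 points for the lower windows and 15.3 points for the higher, where the PBS pair had -30.8 and 28.5 points for the same windows. The windows were chosen on the PBS values, and treatment, mice and read depth differ between the pairs too. A Wald test of the interaction on the log odds scale, over the 314531 windows read in all 4 libraries, called 34 windows (0.0108%). Of these, 13 were among the 542 lower and 5 among the 361 higher PBS windows in that test. In 17 of the 18, the OX40L-JAG1 difference was closer to 0 than the PBS one. The 1 exception was a window on chromosome 2 (from 44425001) with no gene within 5 kb. There the difference was -23.5 points with PBS and 35.1 points with OX40L-JAG1.

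**Figure D5:**
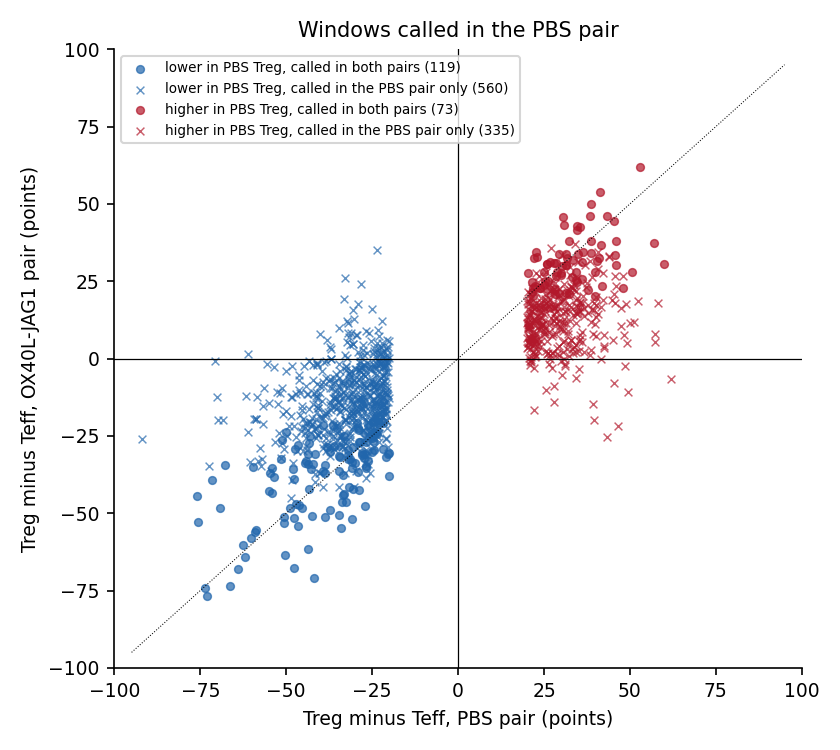
Treg minus Teff difference (points) in the PBS pair (horizontal) and the OX40L-JAG1 pair (vertical) for the windows called in the PBS pair and measured in both; circles are called in both pairs, crosses in the PBS pair only, and the dotted line marks equal differences. Most points lie on the same side of 0 in both pairs and nearer to 0 in the OX40L-JAG1 pair, with 119 lower and 73 higher windows called in both.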

How the data were processed

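Whole-genome bisulfite libraries were read with Trimmomatic and Bismark on mm10, per the submitters' processing notes, and their versions, settings and any removal of duplicates are not given in the sources used here. Per the file headers, the authors deposited for each position and library how many reads covered it and how many of these were methylated, as counts. The deposited methylation level is a fraction from 0 to 1 although headed as a percent, and was not used. Every nonzero deposited count is at least 5, so the listed totals are not the sequencing depth.

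Counts were summed in windows (1 kb, at least 5 positions with at least 5 reads in both libraries) and tested by two-sided Fisher's exact test, adjusted over all windows after Benjamini and Hochberg. A call needed an adjusted p under 0.05 and a difference of at least 20 points. Levels have Wilson and differences Newcombe 95% intervals. The interaction test added 0.5 to each cell. Genes, starts and sequences came from RefSeq tables of GRCm38.p6, and 32851 starts of 27025 genes had a sequence. Strand was inferred from adjacent positions. Python 3.11.15, numpy 2.4.6, pandas 2.3.3, scipy 1.17.1, numba 0.67.0 and matplotlib 3.10.9 were used, and the test was checked on simulated counts.

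Named genes were Foxp3, Ikzf2 and Il2ra, the 12 genes per direction whose interval bound lay farthest from 0, the 5 genes with the most windows and the 5 longest runs, and genes of 18 lists with a called window. Loci, starts and windows outside this rule (Ctla4, Tnfrsf4, Sdhaf1, Smc4, Rhoh, Tbc1d4, Skil, Nrip1, Ppp1r3f, Coq10a, Fas, Tagap, Tgfbr2, Furin, Cd160, Dntt, windows away from genes and list genes without a called window) were chosen after their values were seen. The windows, lists and tests were chosen with earlier results of these data known. Alternatives varied the minimum of reads and positions, the grid, the strand, the scaling, the thresholds and the set of positions.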

Additional observations from a re-analysis of the deposited data

Results flagged for a closer look

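The interaction test between the PBS pair and the OX40L-JAG1 pair called 3 of the windows of named genes, so their Treg minus Teff difference was not the same in both pairs. A change between pairs is the OX40L-JAG1 difference minus the PBS difference, over positions read in all 4 libraries, while levels are over the positions of each pair.

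Pdlim5, which encodes a PDZ and LIM domain protein, changed by -68.5 points between the pairs in its window from 3:142373001 (adjusted p = 0.00391, Wald chi-square test of the interaction on read counts). PBS Teff, at 29.1%, was the low library of the 4, with PBS Treg at 91.0% and the OX40L-JAG1 libraries at 90.5% for Teff and 84.0% for Treg. Cblb, a ubiquitin ligase that restrains T cell activation, changed by 58.6 points in its window from 16:52146001 (adjusted p = 0.00710, same chi-square test), from -34.8 points in the PBS pair to 9.92 points in the other. Pcyt1a, an enzyme of phosphatidylcholine synthesis, shares its window from 16:32434001 with the flank of Tctex1d2 and changed by -35.6 points (adjusted p = 6.73e-05, same chi-square test). Its levels were 7.11% and 54.5% in the PBS pair and 42.9% and 53.5% in the OX40L-JAG1 pair, and PBS Teff was again the low one. Each rests on 1 library per group.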

How the results depend on the processing

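Counts of called windows moved most with the reads behind them, while the sign of every named window stayed the same in each alternative that could measure it. These windows were chosen by their calls and the alternatives reuse their reads, so the sign had little room to change. Of the 107 windows, 18 could be measured with 10 reads, 22 with 10 positions, 14 on the plus strand and 13 on the minus strand. Windows lower and higher in PBS Treg, 1190 and 642, became 262 and 219 with a minimum of 10 reads, 362 and 220 with 10 positions, 113 and 47 with read counts divided by 3, 518 and 361 over positions read in all 4 libraries, 777 and 360 with a difference of at least 30 points, 195 and 77 on the plus strand alone, and 183 and 66 on the minus strand alone. The other 7 alternatives gave within 1.5 times the main counts. The share of lower among called windows was 65.0%, and ran from 54.5% with 10 reads to 73.5% on the minus strand. The Treg signature count of 17 genes became 6 with 10 reads, 8 with 10 positions, 5 with counts divided by 3, and 1 and 4 on the plus and minus strands. The naive list's 6 became 3 with 10 reads, 2 with counts divided by 3, and 1 and 3 on the strands, each with the cause not tested. Starts, 61 lower and 43 higher, became 25 and 27 with 500 bases and 17 and 18 with 10 reads. Windows called in both pairs, 119 and 73, became 42 and 42 with 10 reads and 14 and 3 with counts divided by 3, in alternatives chosen after seeing the data. Of 107 named windows, 24 were still called with counts divided by 3, among them those of Ikzf2, Ikzf4, Tigit, Tcf7, Cers6 and Pip4k2a. The 1 window tested in this way for each of Foxp3, Il2ra, Lef1 and Satb1 was not, and their other windows are not part of that count. No paired analysis was possible because each group has 1 library.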
